A study of Porphyridium purpureum with 12 samples.

Results

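The comparison described here set the second nitrogen-limited stage (NL2) of the unicellular red microalga *Porphyridium purpureum* against the first (NL1), with 3 RNA-seq libraries each, 6 of the 12 libraries sequenced. NL1 was sampled at 0.6 g/L residual nitrate and NL2 at 0.5 g/L, both in the pre-stationary phase. The reference stages were nitrogen-replete cultures (NR, 1.5 g/L) in early logarithmic growth and nitrogen-deprived cultures (LND, named ND in the labels, 0.3 g/L), again with 3 libraries each. All 4 stages used strain 1380/1A, not genetically altered, grown in modified Provasoli medium in photobioreactors under continuous light, so that residual nitrate and culture age changed together and cannot be told apart. The labels call the 3 libraries of a stage technical replicates, as does the study's text for the RNA samples, although its methods also mention independent cultures, and the p-values below measure only the spread between these libraries. Counts were available for 9898 gene models, and the 6 libraries held between 18620362 and 30556820 counts. The question was what changed between 2 neighbouring stages of nitrogen limitation, whether it continued the change from NR or anticipated that to LND, and which libraries set the limit of the comparison.

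Nitrate enters an algal cell through high-affinity transporters, is reduced to nitrite and ammonium by nitrate and nitrite reductases, and is built into glutamine by glutamine synthetase. When nitrate runs short, photosynthetic cells can no longer put all of their fixed carbon into protein, and pigment-protein complexes, starch turnover and carbon storage are adjusted. *P. purpureum* is known for releasing a sulphated exopolysaccharide rich in xylose, galactose and glucose, whose nucleotide-sugar precursors are drawn from central carbon metabolism. Light is collected in this alga by phycobilisomes and by chlorophyll-binding antenna proteins of photosystem I.

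The libraries did not separate cleanly by stage. In variance-stabilised counts, NL1 replicate 3 lay at distances of 20.7 and 19.8 from NL2 replicates 1 and 2, but at 33.1 and 28.6 from NL1 replicates 1 and 2, the libraries of its own label. NL2 replicate 3 stood apart from both other NL2 libraries, at 31.8 and 30.2, whereas those were 18.3 from each other. The nearest library to NL1 replicate 2 was also an NL2 library, at 28.2 against 28.6 and 29.5 to its own stage. The TMM scaling factor was 1.07 in NL1 replicate 1, 1.00 in replicate 2 and 0.95 in replicate 3, and 0.99 in each NL2 library, while the 10 most abundant genes took between 6.48% and 7.51% of the counts of each library. NL1 replicate 1 and NL2 replicate 3 were the shallowest libraries, with 18620362 and 19497580 counts and 658 and 666 genes without counts. The other libraries held 27694090 to 30556820 counts, with 498 to 559 genes without counts. The part of these technical values in the distances was not tested. Because NL1 replicate 3 went against its label, results are given below with and without it.

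**Figure D1:**
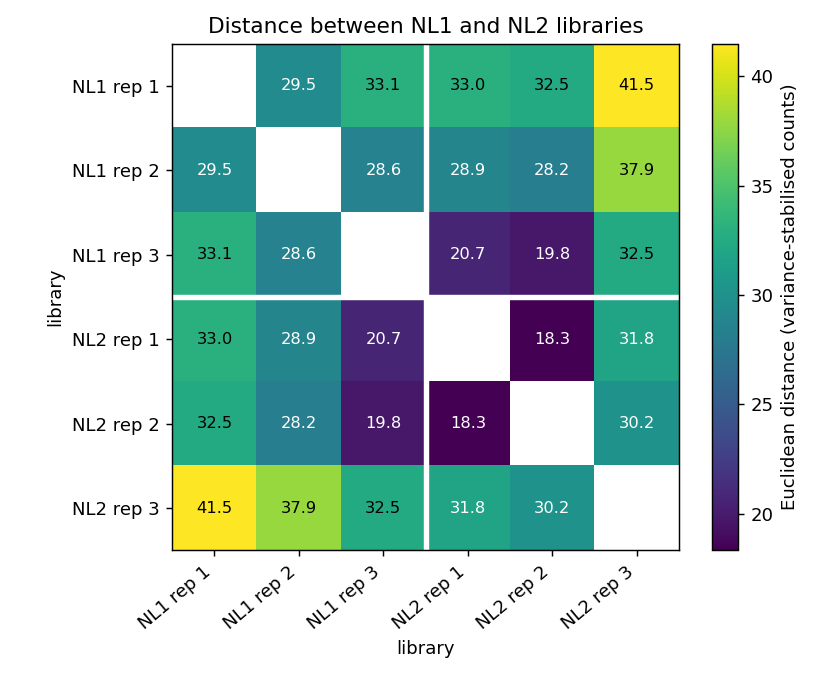
Euclidean distance between each pair of the 6 NL1 and NL2 libraries in variance-stabilised counts, with the value in each cell. The library labelled NL1 replicate 3 is nearest to NL2 replicates 2 (19.8) and 1 (20.7), and NL2 replicate 3 is at least 30.2 from every other library.

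A check of each label that did not use the checked library gave the same picture. Genes were chosen at an unadjusted p under 0.05 in a fit that left 1 library out, and the left-out library was then placed between the means of both stages. Of 1376 genes chosen without NL1 replicate 3, that library was nearer to the NL2 mean for 1040 (75.6%), with a median position of 0.80 on a scale from 0 at the other NL1 libraries to 1 at NL2. For each of the other 5 libraries in turn, between 28.8% and 38.1% of genes placed it nearer to the opposite stage. Single genes that were off by at least 2-fold from both companions were counted among 7686 genes with a mean of at least 10 CPM (counts scaled to the library total by the usual factor, with TMM). There were 58 such genes in NL2 replicate 3, 41 in NL1 replicate 3, 33 in NL1 replicate 2, 16 in NL1 replicate 1 and 0 in NL2 replicates 1 and 2.

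With all 6 libraries, no gene was called in NL2 vs. NL1. Of 9104 genes tested by the edgeR quasi-likelihood test, 0 (0%) reached an adjusted p under 0.01 with an absolute log2 fold change (log2FC) of at least 1, and the smallest adjusted p was 0.267. At an unadjusted p under 0.05, 416 genes (4.57%) were higher and 411 (4.51%) lower in NL2. The median log2FC was −0.01 and 95% of genes lay between −0.70 and 0.54, with a median standard error of 0.16. The NL1 and NL2 libraries did not overlap for 676 genes (7.43%) that were higher in NL2 and 693 (7.61%) that were lower. DESeq2 placed 19 genes under an adjusted p of 0.01, 5 higher and 14 lower, of which 2 also passed the fold threshold, both lower in NL2.

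Large fold changes in this comparison were mostly those of weakly expressed genes. An absolute log2FC of at least 1 was found for 134 genes, 38 higher and 96 lower, with a median level of 1.03 CPM against 36.8 CPM for all genes tested. Only 22 of these 134 had a mean of at least 10 CPM. One library could set such a value: POR9133, an SH3 domain-containing protein picked here after its values were seen, had 33.9, 233 and 25.4 CPM in NL1 replicates 1 to 3 and 23.3, 28.9 and 31.3 CPM in NL2. Its log2FC of −1.81 ± 0.65 (SE) came from NL1 replicate 2, and the ranges of the other NL1 libraries and of NL2 overlapped.

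Of the 12 genes with the smallest p-values and no overlap between the stages, 11 had shifts of less than 2-fold, and POR9071 was the exception. POR4585, to which the sources used here give no name, had 854, 943 and 888 CPM in the NL1 libraries and 548, 567 and 546 CPM in the NL2 libraries. These values did not overlap, and NL1 replicate 3 lay with its own label. Its log2FC was −0.69 ± 0.11 (SE; edgeR adjusted p = 0.267, DESeq2 adjusted p = 1.8e-06). POR9071, also without a name, had 29.8, 27.5 and 20.8 CPM in NL1 and 5.45, 11.1 and 5.42 CPM in NL2, with a log2FC of −1.82 ± 0.29. Among the genes that were higher, POR3928 had 134, 126 and 132 CPM in NL1 and 195, 186 and 230 CPM in NL2, a log2FC of 0.64 ± 0.12. POR6142 had 99.7, 93.6 and 110 CPM in NL1 and 163, 153 and 147 CPM in NL2, a log2FC of 0.61 ± 0.11. Neither of these has a name in the sources used here, and neither overlapped between the stages. The other 4 higher and 4 lower genes named by the same rule had log2FC from 0.54 to 0.68 and from −0.77 to −0.60, and among these phototropin-1, described next, was the one with a product name.

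Phototropin-1 and the enzymes of carbon and nitrogen turnover that respond in late nitrogen deprivation were lower in NL2 as a group. The 7 genes were picked from those that the study names for their response in these libraries, with the NL2 libraries among those used, so that their direction is not independent evidence. All 7 were lower in NL2 with a median log2FC of −0.43, against −0.01 for all genes, and none of the 7 overlapped between the stages, where 7.61% of all genes were lower without overlap. At an unadjusted p under 0.05, 6 of the 7 were lower and 0 higher, beside 4.51% and 4.57% of all genes, and none was called. The lean was not particular to these 7. Of 76 tested genes with product names taken from the study, the 7 included, 57 were lower in NL2, against 51.0% of all genes. At the same threshold, 27 of the 76 were lower and 4 higher. The 76 also take their names from the study of these libraries, so that their direction is not independent evidence either. NL1 replicate 3 was nearer to the other NL1 libraries than to NL2 for each of the 7, and without it the median was −0.47.

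Phototropin-1 (POR7844), a blue-light receptor kinase, had 253, 268 and 279 CPM in NL1 and 165, 168 and 194 CPM in NL2. Its level was 1.52-fold lower in NL2, a log2FC of −0.60 ± 0.11 (SE; edgeR adjusted p = 0.288, DESeq2 adjusted p = 0.00103). Scaled over all 12 libraries, it stood in NR at 460 ± 160 CPM (SD, n = 3) and in LND at 6479 ± 464 CPM (SD, n = 3), so that NL2 held the lowest mean of the 4 stages. A second gene annotated as a blue-light photoreceptor, POR2343, was looked at after its values were seen. It had 5447, 5392 and 6051 CPM in NL1 and 3989, 3793 and 3437 CPM in NL2, without overlap, and a log2FC of −0.59 ± 0.12 (DESeq2 adjusted p = 0.000416).

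Phosphoenolpyruvate carboxykinase (POR8724), which turns oxaloacetate into phosphoenolpyruvate, had 5745, 6484 and 5811 CPM in NL1 and 4768, 4306 and 4160 CPM in NL2, a log2FC of −0.45 ± 0.12. The NADP-dependent malic enzyme (POR0986), which releases CO2 and NADPH from malate, had 371, 370 and 378 CPM in NL1 and 287, 263 and 179 CPM in NL2, a log2FC of −0.62 ± 0.16. Alpha-glucan water dikinase (POR4248), which phosphorylates starch ahead of its breakdown, had 318, 308 and 307 CPM in NL1 and 230, 233 and 239 CPM in NL2. The dikinase was nearly level within each stage, with a gap between the stages, and its log2FC was −0.41 ± 0.10. The flavohemoproteins POR5270 and POR7105, which detoxify nitric oxide in microbes, had log2FC of −0.35 ± 0.11 and −0.43 ± 0.13. Asparagine synthetase (POR2648), which stores nitrogen as an amide, had a log2FC of −0.25 ± 0.12 and was the member with an unadjusted p above 0.05 (0.052).

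These 7 genes stood higher in LND than in the mean of both NL stages, with log2FC from 1.75 for the dikinase to 4.96 for phototropin-1. From NL1 to NL2 they were therefore displaced in the direction opposite to the later change. The contrasts share the NL1 and NL2 libraries.

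Among the lists, the photosynthesis genes had the largest change in median when NL1 replicate 3 was left out. Of 13 genes for photosystem, electron transport and ATP synthase proteins, 11 were higher in NL2 with a median log2FC of 0.25, 1 (against 4.57% of all genes) at an unadjusted p under 0.05. None of the 13 separated the libraries of the stages, where 7.43% of all genes were higher and 7.61% lower without overlap. For 12 of them NL1 replicate 3 was nearer to NL2 than to the other NL1 libraries, against 58.7% of all genes, and the same held for 3 of 3 glycan assembly, 8 of 10 nitrogen and 15 of 20 glycolysis genes. Without it, 12 of 13 were higher, the median was 0.39, 10 had an unadjusted p under 0.05 and 5 an adjusted p under 0.05, where the background was 1.93% of all genes higher and 0.426% lower. Other lists also held genes at that adjusted p without NL1 replicate 3. Of these, 2 of 20 glycolysis and 2 of 63 glycosyltransferase genes were higher, and 2 of the 7 carbon and nitrogen genes with phototropin-1 were lower. Among the 10 nitrogen genes, 1 was higher and 1 lower. None of the 5 photosynthesis genes reached the 2-fold threshold.

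Among the 5 were 3 of the 4 antenna genes of photosystem I, psbQ and petH, and in each of these NL1 replicate 3 was nearer to NL2 than to the other NL1 libraries. The antenna gene LHCA1 (POR2835) was not among them, with a log2FC of 0.18 ± 0.16 (SE) with all libraries and 0.39 without NL1 replicate 3 (adjusted p = 0.0733). The LHCA4 gene POR9059 had 1566 and 1781 CPM in NL1 replicates 1 and 2, 3217 CPM in NL1 replicate 3, and 2947, 3011 and 2997 CPM in NL2. Its value in NL1 replicate 3 exceeded all of the NL2 values, and its log2FC was 0.45 ± 0.22 (SE) with all 6 libraries and 0.84 without that library (adjusted p = 0.0018). The LHCA4 genes POR6098 and POR2815 followed the same course, with 2613, 2901 and 4998 CPM against 4614, 4557 and 4285 CPM for POR6098, and 1688, 1743 and 2801 CPM against 2609, 2582 and 2602 CPM for POR2815. Reads of such related copies may be shared between them. PsbQ (POR3050), of the oxygen-evolving complex, had 1492, 1460 and 2584 CPM in NL1 and 2255, 2199 and 2477 CPM in NL2. Ferredoxin-NADP reductase (petH, POR1681), the last step of linear electron flow, had 853, 923 and 1272 CPM in NL1 and 1334, 1322 and 1249 CPM in NL2, and its log2FC of 0.36 ± 0.15 was the one with an unadjusted p under 0.05. The photosystem I subunit psaO (POR2912) differed the other way within NL2, with 1201 and 1068 CPM in replicates 1 and 2 and 556 CPM in replicate 3. Its log2FC was −0.05 ± 0.24, but was positive without either NL1 replicate 3 or NL2 replicate 3. The antenna genes POR6098 and psbQ and the subunit psaO were added to those of the naming rule after their values were seen.

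**Figure D2:**
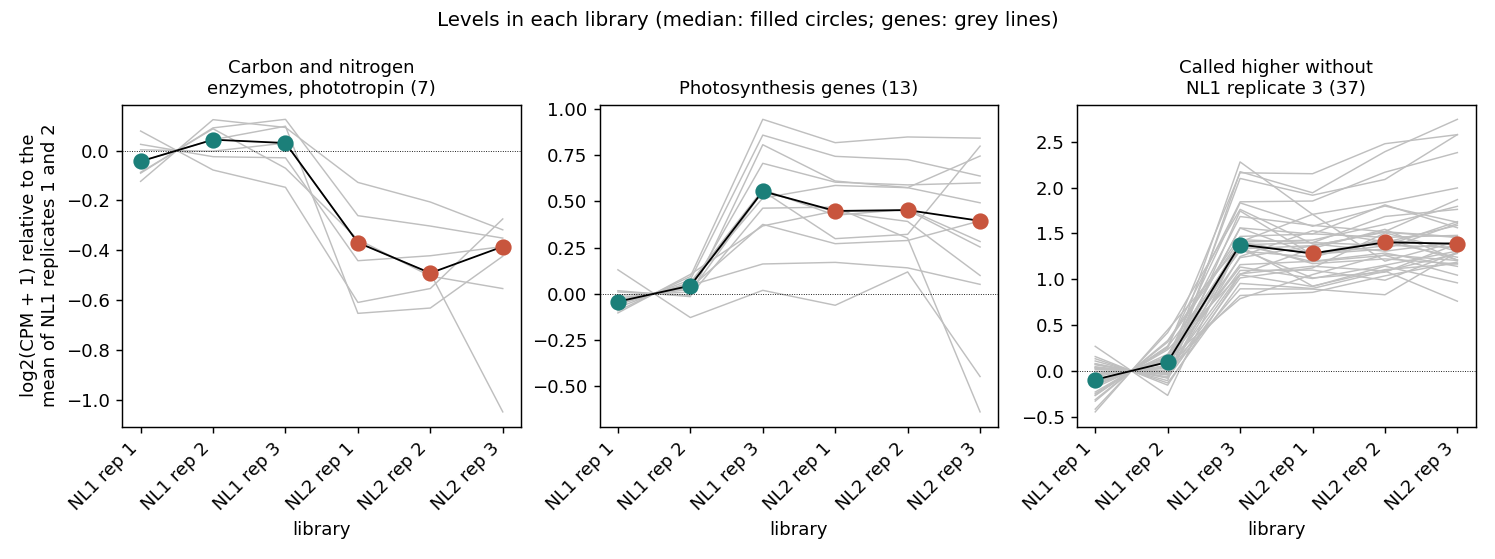
Level of each gene in each NL1 and NL2 library, as log2(CPM + 1) relative to the mean of NL1 replicates 1 and 2 (grey lines, genes; filled circles, median over genes; NL1 green, NL2 orange). In the 7 carbon and nitrogen genes NL1 replicate 3 sits with NL1, while in the 13 photosynthesis genes, and in the 37 genes called higher without that library, it sits at the NL2 level; the zero of the axis was set by NL1 replicates 1 and 2, and the right panel was chosen by its values.

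Removing NL1 replicate 3 was the one deletion that gave calls. Without it, 37 of 9153 genes (0.404%) were called higher and 3 (0.0328%) lower in NL2, and at an unadjusted p under 0.05 there were 817 higher and 565 lower. Leaving out any other NL1 or NL2 library gave 0 calls in both directions by edgeR. The library left out was not used to choose these 40 genes, and for 39 of them it lay nearer to the NL2 mean than to the mean of NL1 replicates 1 and 2, with a median position of 0.97. For 28 of the 37 higher genes, its value was at or above the lowest NL2 library.

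Among the 37, POR3848 was the most abundant of those with a log2FC above 2, at 482 and 471 CPM in NL1 replicates 1 and 2, 2046 CPM in replicate 3, and 1802, 2030 and 2850 CPM in NL2. Its log2FC was 1.16 ± 0.47 (SE) with all libraries and 2.22 ± 0.18 without NL1 replicate 3 (adjusted p = 0.000328). POR8389 had 14.3 and 20.7 CPM in NL1 replicates 1 and 2, 80.6 CPM in replicate 3, and 80.0, 101 and 108 CPM in NL2. In both genes NL1 replicate 3 was far above the other libraries of its own stage and inside the NL2 range. None of the 37 has a product name in the sources used here.

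The 3 genes called lower included POR9071, described above, in which NL1 replicate 3 stayed with NL1. In POR4095, annotated as a hypothetical protein, it did not: the NL1 values were 337, 332 and 95.4 CPM and those of NL2 were 106, 88.7 and 109 CPM. POR1395 had 1204, 1506 and 683 CPM in NL1 and 559, 537 and 564 CPM in NL2, with NL1 replicate 3 between the others. With all 6 libraries its log2FC was −1.03 ± 0.23, and DESeq2 called it (adjusted p = 0.000418). POR6249 was the second DESeq2 call (adjusted p = 0.00869), with 60.8, 132 and 89.6 CPM in NL1 and 38.9, 38.7 and 61.2 CPM in NL2. Its ranges overlapped narrowly, with the highest NL2 library just above the lowest NL1 library.

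**Figure D3:**
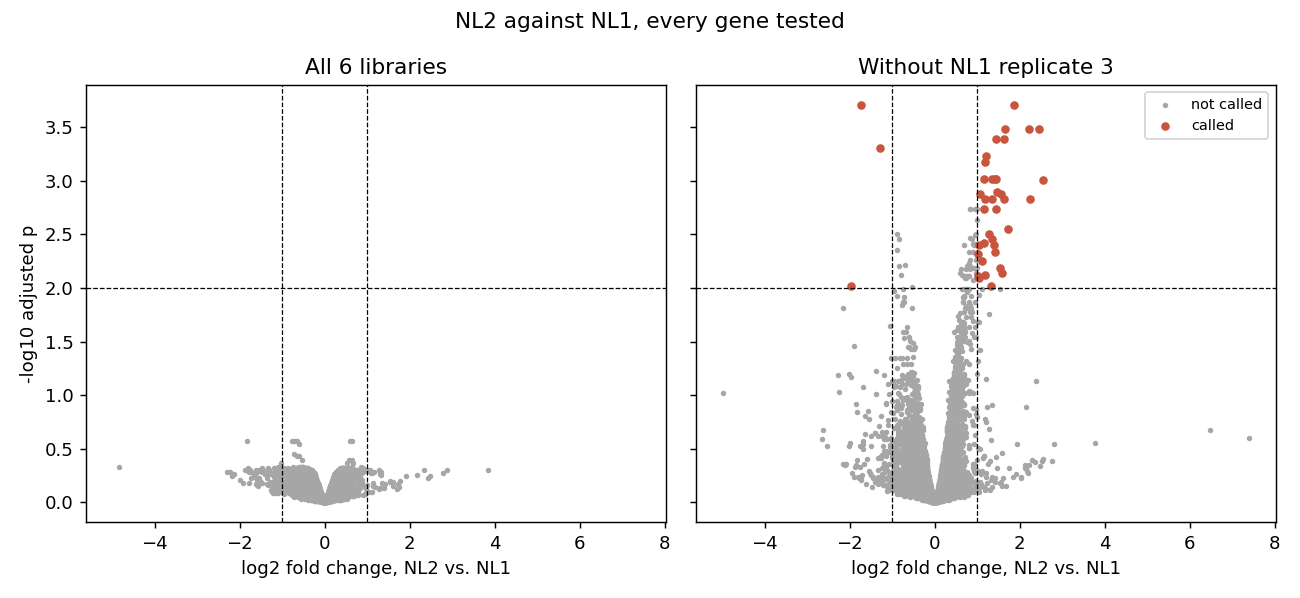
log2 fold change of NL2 vs. NL1 against −log10 adjusted p (edgeR) for the 9104 genes tested, with all 6 libraries (left) and without NL1 replicate 3 (right); dashed lines mark an adjusted p of 0.01 and a 2-fold change. No gene passes both lines on the left, and 37 higher and 3 lower genes pass on the right.

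Genes of nitrate uptake and assimilation showed no common shift. Of 10 genes, 5 were higher and 5 lower, with a median log2FC of 0.04, and 1 was higher and 2 lower at an unadjusted p under 0.05, with all genes at 4.57% and 4.51%. Glutamine synthetase (POR7605), which fixes ammonium, had 252, 310 and 379 CPM in NL1 and 392, 432 and 412 CPM in NL2, without overlap, and a log2FC of 0.39 ± 0.15. Glutamate dehydrogenase (POR3485) did not overlap either, but its log2FC was 0.17 ± 0.12. One of 3 nitrate reductase genes, POR3077, had 60.5, 47.0 and 23.5 CPM in NL1 and 28.4, 29.5 and 19.8 CPM in NL2. Its NL1 replicate 3 was within the NL2 range, and its log2FC was −0.75 ± 0.29. The nitrate transporter POR7993, annotated as NRT2.5, had 32.2, 24.5 and 18.5 CPM in NL1 and 15.3, 20.7 and 13.1 CPM in NL2, a log2FC of −0.61 ± 0.24. The other 3 transporters had log2FC from −0.17 to 0.21 and the other 2 nitrate reductases −0.11 and −0.01.

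In glycolysis, gluconeogenesis and fermentation, 14 of 20 genes were higher in NL2, with a median log2FC of 0.06, and 4 were higher at an unadjusted p under 0.05 against 0 lower, beside 4.57% and 4.51% of all genes. The fructose-1,6-bisphosphatases POR7711 and POR3931, which the study predicts to be cytosolic, were among these 4. POR3931 had 55.6, 72.3 and 85.7 CPM in NL1 and 101, 89.8 and 99.4 CPM in NL2, and POR7711 had 39.2, 57.7 and 76.2 CPM in NL1 and 77.7, 80.6 and 85.4 CPM in NL2. Neither overlapped between the stages, and NL1 replicate 3 was the highest NL1 library in each. The dihydrolipoyl dehydrogenase POR2889 had a log2FC of 0.42 ± 0.15 and the aldolase POR9095 of 0.38 ± 0.17. Other copies of these enzymes shifted less or the other way. The log2FC was 0.03 for the bisphosphatase POR8239, 0.25 for the dihydrolipoyl dehydrogenase POR3702, and −0.02 and −0.37 for the aldolases POR3181 and POR1048. Without NL1 replicate 3 the median of the list was 0.17. An alcohol dehydrogenase, POR6665, named after its values were seen, had 2641 and 2191 CPM in NL2 replicates 1 and 2 but 1060 CPM in replicate 3, with 2697, 2554 and 3061 CPM in NL1.

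In the pentose phosphate pathway 4 of 7 genes were higher, with a median of 0.02. Glucose-6-phosphate dehydrogenase (POR9598), the NADPH-forming entry step, had 288, 308 and 360 CPM in NL1 and 384, 369 and 521 CPM in NL2, a log2FC of 0.41 ± 0.15, while the 6-phosphogluconate dehydrogenase POR4213 was displaced the other way, with a log2FC of −0.26 ± 0.12. Both separated the libraries of the stages. A further 6-phosphogluconate dehydrogenase, POR4685, had a log2FC of 0.11 ± 0.16. Of 18 genes of the respiratory chain and the vacuolar proton pump, 9 were higher and the median was −0.01. The pump subunit d (POR8327) had 87.4, 90.5 and 94.6 CPM in NL1 and 115, 107 and 123 CPM in NL2, a log2FC of 0.34 ± 0.11.

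Nucleotide-sugar synthesis feeds the exopolysaccharide, and 6 of its 9 genes were higher in NL2, with a median log2FC of 0.16 and 2 at an unadjusted p under 0.05, against 4.57% of all genes. UDP-glucose 6-dehydrogenase (POR2992), which makes UDP-glucuronate, had 331, 324 and 352 CPM in NL1 and 435, 435 and 518 CPM in NL2. The libraries did not overlap, NL1 replicate 3 lay with NL1, and the log2FC was 0.46 ± 0.12. UDP-xylose synthase (POR4905), the next enzyme toward xylose, had 247, 270 and 348 CPM in NL1 and 345, 358 and 375 CPM in NL2, a log2FC of 0.32 ± 0.14. Here NL1 replicate 3 fell within the NL2 range. UDP-glucose pyrophosphorylase (POR1962), which makes the UDP-glucose at the head of this route, had a log2FC of 0.26 ± 0.14.

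Among 63 glycosyltransferases, 61 were tested, and 37 of them were higher in NL2 with a median of 0.09. At an unadjusted p under 0.05, 7 were higher and 2 lower, where the shares of all genes were 4.57% and 4.51%. The family 8 enzymes POR5778 and POR4276, annotated as glucoside xylosyltransferases, had 110, 108 and 154 CPM in NL1 and 168, 157 and 192 CPM in NL2, and 59.1, 63.7 and 64.8 CPM in NL1 and 71.5, 77.3 and 86.2 CPM in NL2. Their log2FC were 0.47 ± 0.15 and 0.33 ± 0.12, without overlap in either. The family 10 enzyme POR4449 was lower, with a log2FC of −0.65 ± 0.22, and POR2297, another family 8 enzyme, had a log2FC of 0.84 ± 0.32 at levels of 4.03 to 11.2 CPM. Of 26 glycoside hydrolases, 20 were higher with a median of 0.09, 1 at an unadjusted p under 0.05, against 4.57% of all genes. That was the family 36 enzyme POR9254, with a log2FC of 0.44 ± 0.19.

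The 3 genes of protein glycan assembly were all lower in NL2, with a median log2FC of −0.45. RPN2 (POR7179), a subunit of the oligosaccharyltransferase that moves the glycan onto proteins, had 32.8, 27.4 and 22.05 CPM in NL1 and 19.6, 21.6 and 16.4 CPM in NL2, a log2FC of −0.51 ± 0.19. The subunit OSTC (POR5075) had a log2FC of −0.45 ± 0.21. Of 4 retrotransposon polyprotein genes, whose copies may share reads, 3 were lower with a median of −0.25 and POR5449 had a log2FC of −0.29 ± 0.13. All 4 small heat shock proteins were lower, with a median of −0.13 and 0 at an unadjusted p under 0.05, but without NL1 replicate 3 one of them, POR6677, was higher, with a log2FC of 0.09 in place of −0.03. Without that library the number of higher genes became 6 of 10 for nitrogen, 15 of 20 for glycolysis, 8 of 18 for respiration, 7 of 9 for nucleotide sugars, 18 of 26 for glycoside hydrolases and 39 of 63 for glycosyltransferases, and stayed at 4 of 7 for the pentose phosphate pathway, 0 of 3 for glycan assembly and 1 of 4 for retrotransposons. These lists were drawn from genes that the study discusses for these libraries, apart from the glycosyltransferases and glycoside hydrolases, which cover whole families.

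**Figure D4:**
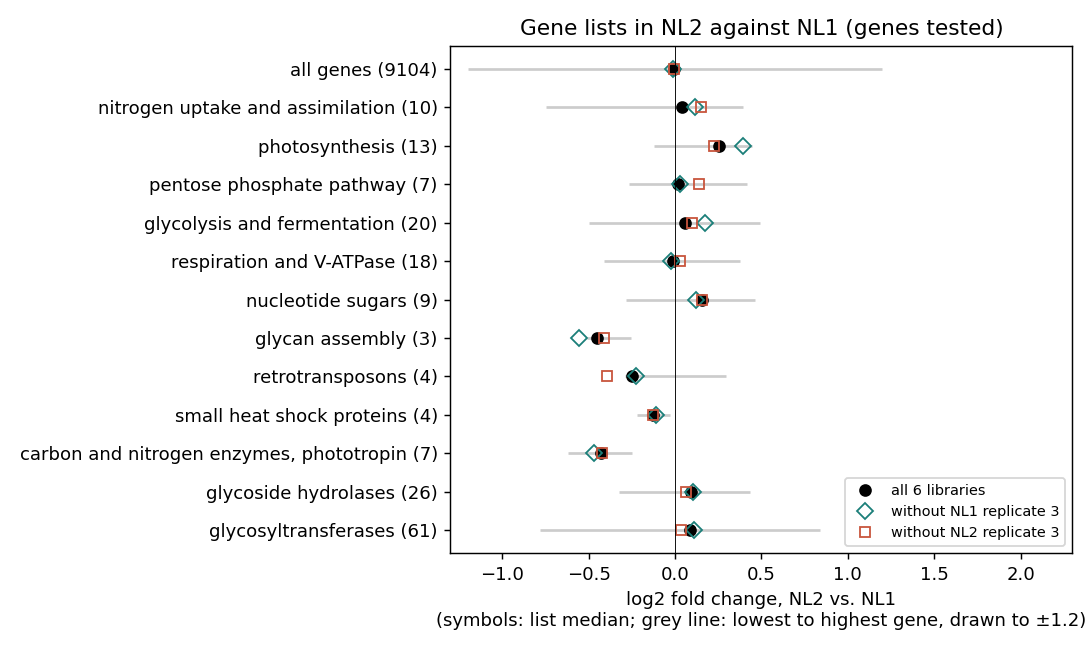
log2 fold change of NL2 vs. NL1 by gene list, with the number of genes tested in parentheses (filled circle, median with all 6 libraries; diamond, without NL1 replicate 3; square, without NL2 replicate 3; grey line, lowest to highest gene). The photosynthesis median goes from 0.25 to 0.39 without NL1 replicate 3, while the 7 carbon and nitrogen genes with phototropin-1 lie at −0.43 and −0.47.

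The sign of the NL2 vs. NL1 shift was set beside the larger changes along the nitrogen course. LND vs. NR shares no library with NL2 vs. NL1. It gave 728 genes called higher (7.96% of those tested) and 1078 called lower (11.8%). In NL2 vs. NL1, 44.4% of the genes higher in LND had a positive log2FC, with a median of −0.03, and so did 44.7% of the 1051 tested genes lower in LND, with a median of −0.04. Among all genes 49.0% were positive. In sign and median, both sets thus leaned slightly to lower values in NL2. With all NR libraries, these measures did not tell the sets apart. With the reference fitted without NR replicate 3, 47.9% of the higher set and 42.8% of the lower set were positive. Their medians were then −0.02 and −0.05. At an unadjusted p under 0.05, 26 of the 728 genes of the higher set were higher and 81 lower in NL2. In the lower set of 1051, 75 were higher and 83 lower, beside 4.57% and 4.51% of all genes. By these counts the higher set leaned to lower values in NL2, and the lower set was nearly balanced. Without NL1 replicate 3 these counts were 71 and 94 for the higher set and 141 and 93 for the lower set. Among all 9153 genes tested in that fit, they were 817 and 565.

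Splitting the course at nitrogen limitation separated the signs. The mean of both NL stages against NR gave 766 genes called higher (8.28%) and 954 lower (10.3%). Of the 766, 463 (60.4%) were also higher in NL2 than in NL1, with a median log2FC of 0.05. Of the 896 lower genes that were tested, 590 (65.8%) were also lower, with a median of −0.11. LND against the mean of both NL stages gave 593 genes called higher (6.41%) and 529 lower (5.72%). Of the 593, 384 (64.8%) were lower in NL2 than in NL1, with a median of −0.08, and of the 529, 381 (72.0%) were higher, with a median of 0.14. These contrasts share the NL1 and NL2 libraries, which enter them as an equal mean, and the shares are given without a test.

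For the NR to NL sets, the shift from NL1 to NL2 thus went with the earlier change. For the NL to LND sets, it went against the later change. The sets can share genes, so that they are not 4 separate results. Their medians were below the median standard error of a single gene, which is not the spread of a set median. Of the 13 photosynthesis genes, 12 were higher in the NL mean than in NR by at least 2-fold. In LND, 12 were lower than in the NL mean by at least 2-fold. The study listed these genes as differentially expressed in these same libraries, so that the 2 counts are not independent evidence. Without NL1 replicate 3 the medians kept their signs, at 0.08 and −0.12 for the NR to NL sets and −0.07 and 0.21 for the NL to LND sets. Of the 37 genes called higher without that library, 19 were called lower and 2 higher in LND against the NL mean, beside 5.72% and 6.41% of all genes. In the NL mean against NR, 4 were called higher and 5 lower, beside 8.28% and 10.3%. The 37 were chosen for high values in NL2, which enter the NL mean, so that these counts are not independent evidence.

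**Figure D5:**
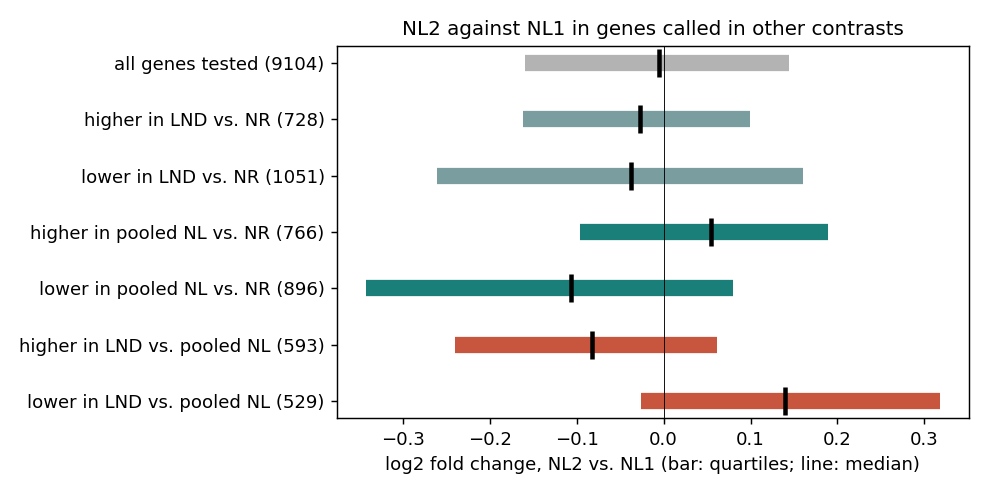
log2 fold change of NL2 vs. NL1 for genes called in other contrasts (bar, lower to upper quartile; black line, median; number of genes tested in parentheses). The sets from LND vs. NR, which share no library with NL2 vs. NL1, have medians of −0.03 and −0.04, while the sets lower in pooled NL vs. NR and lower in LND vs. pooled NL lie on opposite sides of 0, at −0.11 and 0.14.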

How the data were processed

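Polyadenylated RNA was sequenced from stranded libraries as paired reads. The authors mapped reads with STAR 2.7.8a and deposited raw counts per gene from featureCounts 2.0.1 on version 2 gene models, and the submitters' notes also name DESeq2 1.34.0. Whether featureCounts used strand is not given in the sources used here, so that overlapping genes on opposite strands are uncertain. All 12 columns were matched to samples. Counts were analysed with edgeR 4.0.16 in R 4.3.3: genes were kept by filterByExpr (minimum count 10), scaled by TMM and tested with the quasi-likelihood F-test on the NL1 and NL2 libraries, with Benjamini-Hochberg adjustment over all genes tested. Calls needed an absolute log2FC of at least 1 together with an adjusted p under 0.01, the study's thresholds. Pooled NL is the mean of both NL stages in a fit of all 12 libraries. Levels are TMM-scaled CPM, and 1 was added before logs for the positions of libraries. DESeq2 1.42.0 was an alternative. Scripts were tested on simulated data. No 2 libraries agreed within sampling noise: the mean chi-square per gene between libraries of a stage was 11.5 to 99.1.

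The genes named were the 6 higher and 6 lower genes of smallest p without overlap, of which those without a product name are given for 2 in each direction. Up to 4 genes of smallest p per list, genes called without NL1 replicate 3 and genes called by DESeq2 were also named. Names came from the study's tables, and members and lists were chosen with earlier results of these data known. No sequences were used here.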

Additional observations from a re-analysis of the deposited data

How the results depend on the processing

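Calls in NL2 vs. NL1 depended on the library set and on the tool. Leaving out each library in turn gave 0 to 37 genes called higher and 0 to 3 called lower, with calls only without NL1 replicate 3, and 211 to 817 genes higher and 238 to 565 lower at an unadjusted p under 0.05. The likelihood ratio test of DESeq2 gave 0 genes higher and 2 lower, and its Wald test also gave 2 lower. Other scaling, other filters, all 4 conditions in 1 fit and an adjusted p under 0.05 without a minimum fold gave 0 calls. The log2FC of POR2912 (psaO) ranged from −0.27 to 0.22 when 1 library was left out, with a changed sign without NL1 replicate 3 (0.12) and without NL2 replicate 3 (0.22), and the cause was not tested. No other gene of the 51 recomputed under every alternative changed sign. Among all list members, 14 others, each with a log2FC between −0.05 and 0.05, changed sign without NL1 replicate 3. Scaling by library totals alone moved the median of all genes from −0.01 to −0.03 and the pentose phosphate median from 0.02 to −0.00.

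With the replicate number as a block, 0 genes were called in either direction, and 488 were higher and 414 lower at an unadjusted p under 0.05. Same-numbered libraries deviated together with correlations of 0.02, −0.03 and 0.01, and 1 of 3 NL1 libraries correlated best with its own number. With 3 libraries per stage, these values cannot show whether same-numbered libraries share a culture or preparation.

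Each library held at least 18620362 counts. With 3 libraries per stage, the median standard error of a log2FC was 0.16, and 0.15 for genes of at least 10 CPM.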
